A study of Cervus nippon with 4 samples.

Results

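The genes described here were those with a higher mRNA level in the aged Sika Deer testis than in the testes of the adolescence and adult groups. They were chosen from the measured values themselves: a gene was kept when its level in the 10-year library Tst_4 was at least 5 FPKM and at least 2 times its level in both the 3-year library Tst_2 and the 5-year library Tst_3, and when it was detected in Tst_2 and Tst_3 at levels within 1.5-fold of each other. FPKM is a fragment count corrected for the length of the gene and the depth of the library. Of 629520 gene identifiers listed in any library, 335 met the rule, and the 200 with the highest Tst_4 level were taken. The level in the 1-year library Tst_1 took no part in the choice.

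Testes of the Shuangyang breed were sampled at 1 year (Tst_1, juvenile), 3 years (Tst_2, adolescence), 5 years (Tst_3, adult) and 10 years (Tst_4, aged), with no treatment given in the labels. Each age had 1 mRNA library, made from the pooled RNA of 3 animals, so no value has an error, no test was run, and age cannot be told apart from differences between animals, pools or libraries. The files listed between 317205 identifiers in Tst_4 and 422330 in Tst_1, and the summed FPKM was between 820429 in Tst_3 and 870245 in Tst_1. The files pair no identifier with a gene name or a sequence, so genes are given by identifier, no gene function can be stated, and the testis label was not checked against cell type markers.

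The mammalian testis makes sperm in its seminiferous tubules, where spermatogonia divide, spermatocytes pass through meiosis and spermatids are remodelled with the help of Sertoli cells, while Leydig cells between the tubules make testosterone. Before puberty the tubules hold mainly Sertoli cells and early germ cells, and many genes used in late germ cells are switched on when the first wave of spermatogenesis is completed. In ageing mammals, thinning of the germ cell layers, changes of the Leydig cells and growth of connective tissue have been described. In bulk tissue, a changed number of cells of one type and a changed RNA amount per cell cannot be told apart.

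The 200 genes were a small part of the aged transcriptome and were led by a few high values. Their summed FPKM came to 407.8 at 1 year, 1207 at 3 years, 1209 at 5 years and 3765 at 10 years, which was 0.451% of all FPKM in Tst_4 and 0.0469% in Tst_1. From the youngest to the oldest library the median level was 0.08, 4.02, 3.94 and 11.8 FPKM. The first 10 genes held 24.2% of the members' FPKM in Tst_4 and the first 50 held 55.6%. In Tst_4, 11 genes had at least 50 FPKM, 39 had 20 to 50, 82 had 10 to 20 and 68 had less than 10.

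**Figure D1:**
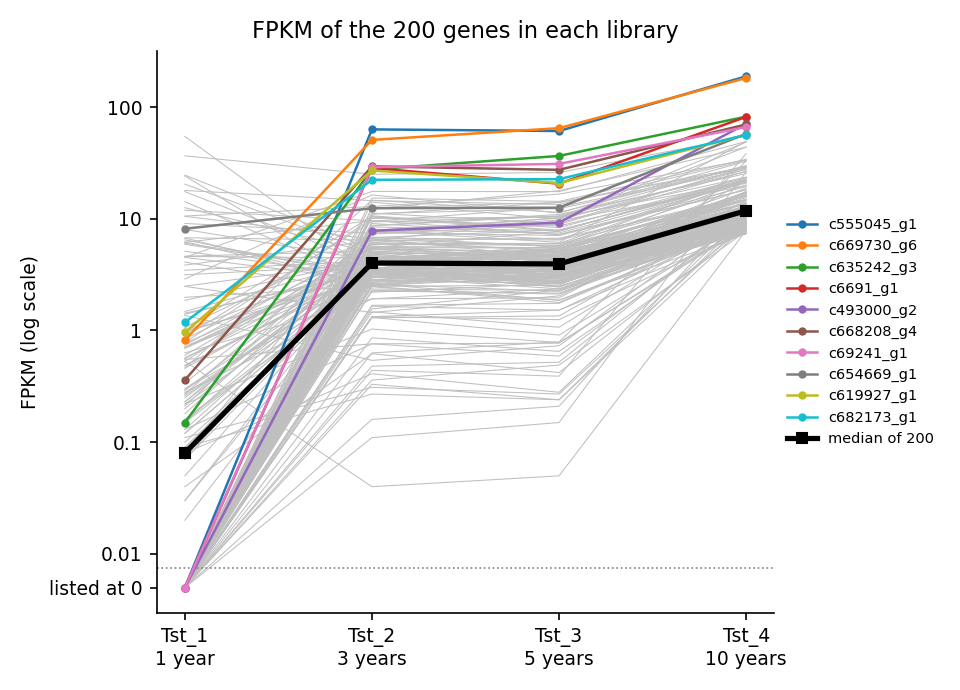
FPKM of the 200 genes (grey lines) in the 4 libraries on a log scale, with the 10 genes highest in Tst_4 in colour and the median of all 200 in black. Genes missing from a file are drawn at the level marked as listed at 0. The median lies at 0.08 FPKM in Tst_1, near 4 FPKM in Tst_2 and Tst_3, and at 11.8 in Tst_4.

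Gene c555045_g1 had the highest aged level, with 0 FPKM at 1 year, 63.05 at 3 years, 60.99 at 5 years and 188.26 at 10 years. Gene c669730_g6 followed with 0.82, 50.76, 64.68 and 181.86 FPKM in the same order of ages. Both were nearly absent from the juvenile library, stood at a like level at 3 and 5 years and were about 3 times higher at 10 years, with a ratio of Tst_4 to the higher of the 3-year and 5-year levels of 2.99 and 2.81.

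Gene c635242_g3 had 0.15 FPKM at 1 year, 27.64 at 3 years, 36.49 at 5 years and 81.98 at 10 years. Gene c6691_g1 was listed at 0 at 1 year and had 28.40 FPKM at 3 years, 20.60 at 5 years and 81.61 at 10 years. Gene c493000_g2 was also listed at 0 at 1 year, and had 7.80 FPKM at 3 years, 9.23 at 5 years and 70.73 at 10 years. The last of these differed from the others in size, as its level in Tst_4 was 7.66 times that in Tst_3, against 2.25 times for c635242_g3.

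Gene c668208_g4 had 0.36 FPKM at 1 year, 29.45 at 3 years, 27.40 at 5 years and 69.85 at 10 years. Gene c69241_g1 was listed at 0 at 1 year and had 28.95 FPKM at 3 years, 30.97 at 5 years and 66.25 at 10 years. Both lay close to the 2-fold limit of the rule, with ratios of Tst_4 to the higher of Tst_2 and Tst_3 of 2.37 and 2.14.

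Gene c654669_g1 had 8.14 FPKM at 1 year, 12.42 at 3 years, 12.56 at 5 years and 57.57 at 10 years. Gene c619927_g1 had 0.96 FPKM at 1 year, 27.03 at 3 years, 20.86 at 5 years and 56.46 at 10 years, and gene c682173_g1 had 1.18, 22.31, 22.62 and 56.25 FPKM. Among the 10 highest genes, c654669_g1 was the one with the most juvenile expression, and the other 9 were at or below 1.18 FPKM in Tst_1.

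Over all 200 genes the ratio of Tst_4 to the higher of Tst_2 and Tst_3 had a median of 2.66, and its lower and upper quartiles were 2.22 and 3.46. The ratio was 2 to 3 in 128 genes, 3 to 5 in 42, 5 to 10 in 14 and at least 10 in 16. Tst_2 was above Tst_3 in 112 genes and below it in 88, with a median ratio between them of 1.23. In 74 genes the FPKM was higher at each age than at the one before. The last of these steps was set by the rule in all 200 genes, and Tst_2 and Tst_3 were held within 1.5-fold. The ratios and this count are a description, since the rule chose the genes by the ratios.

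**Figure D2:**
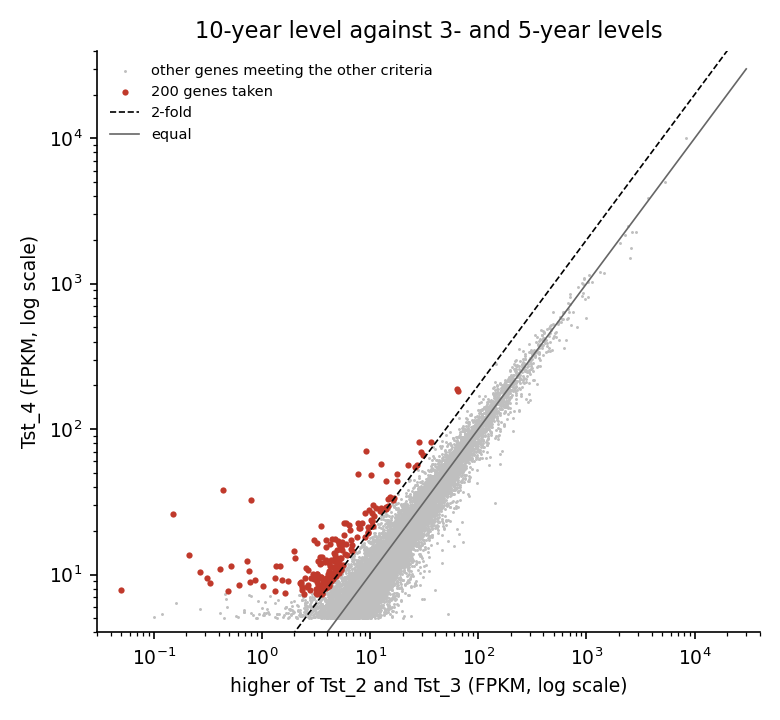
Tst_4 level against the higher of the Tst_2 and Tst_3 levels, both in FPKM on log scales, for the 16419 genes that met every criterion other than the 2-fold difference. The 200 genes taken (red) lie above the dashed 2-fold line, most of them close to it, and a few lie far to the left with less than 1 FPKM at 3 and 5 years.

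On the deposited scale the same rule found from 317 to 445 genes for each of the later ages. Among the 16419 genes that met the criteria on level, detection and closeness, the 335 with a 2-fold higher level in Tst_4 made up 2.04%. With Tst_2 in place of Tst_4 as the high library, 445 of 17936 genes met the rule, or 2.48%, and with Tst_3 as the high library 317 of 17160 did, or 1.85%. The mirrored rule, with Tst_2 and Tst_3 at 5 FPKM or more and at least 2 times Tst_4, was met by 380 genes. Its minimum applied to both Tst_2 and Tst_3 and Tst_4 could be 0, so this count comes from another pool and is not comparable with the others. The number of genes set apart in Tst_4 lay between those set apart in Tst_2 and in Tst_3 on the deposited scale. The order was not stable: at a fold of 3 the counts were 127 for Tst_4, 122 for Tst_2 and 101 for Tst_3. After median-of-ratios scaling the counts were 625 for Tst_4, 567 for Tst_2 and 187 for Tst_3. After trimmed-mean scaling they were 769 for Tst_4, 1163 for Tst_2 and 321 for Tst_3. Under both scalings the minimum of 5 was read on the scaled values, so the deposited level it stood for differed between the libraries. After trimmed-mean scaling this level was lower in each later library, with log2 factors of -0.82 for Tst_2, -0.53 for Tst_3 and -0.78 for Tst_4. Those counts thus also reflect a looser minimum, and its share in the rise was not tested. Over the 16419 genes the median log2 ratio was -0.01 for Tst_4 vs. Tst_2 and -0.01 for Tst_4 vs. Tst_3.

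A small group of genes was close to absent at 3 and 5 years and clearly listed at 10 years. The ratio was at least 10 in 16 of the 200 genes, and in 25, or 0.152%, of the 16419 genes. When Tst_2 was the high library, 4 of the first 200 genes reached this ratio, and 9, or 0.0502%, of the 17936 genes. With Tst_3 as the high library, 6 of the first 200 did, and 12, or 0.0699%, of the 17160 genes. Each first 200 was cut at a different depth, as 335 genes met the rule for Tst_4, 445 for Tst_2 and 317 for Tst_3. All 16 genes high in Tst_4 were below 1 FPKM in both Tst_2 and Tst_3, where the highest value was 0.86. Their Tst_4 levels ran from 7.76 to 38.38 FPKM, with a median of 10.5. A ratio of at least 10 thus by itself held most of the Tst_2 and Tst_3 values near or below 1 FPKM. In Tst_1, 8 of the 16 were listed at 0 and the highest level was 1.37 FPKM. These 3 sets of 200 genes were each chosen by their high library, and the sets share libraries, so the counts are given side by side without a test.

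Gene c660442_g6 was listed with the greatest ratio and had 0 FPKM at 1 year, 0.11 at 3 years, 0.15 at 5 years and 26.28 at 10 years. Gene c604692_g1 had 0.53 FPKM at 1 year, 0.04 at 3 years, 0.05 at 5 years and 7.86 at 10 years. Gene c333122_g1 was listed at 0 at 1 year and had 0.44 FPKM at 3 years, 0.39 at 5 years and 38.38 at 10 years. The ratios of Tst_4 to the higher of Tst_2 and Tst_3 were 175, 157 and 87.2. With values rounded to 2 decimals, they could lie at 169.5 to 181.3, 142.8 to 174.8 and 86.2 to 88.2, so the order of the first and the second is not settled. In each of the 3 genes the aged library was high alone, and the other 3 libraries were all below 1 FPKM.

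**Figure D3:**
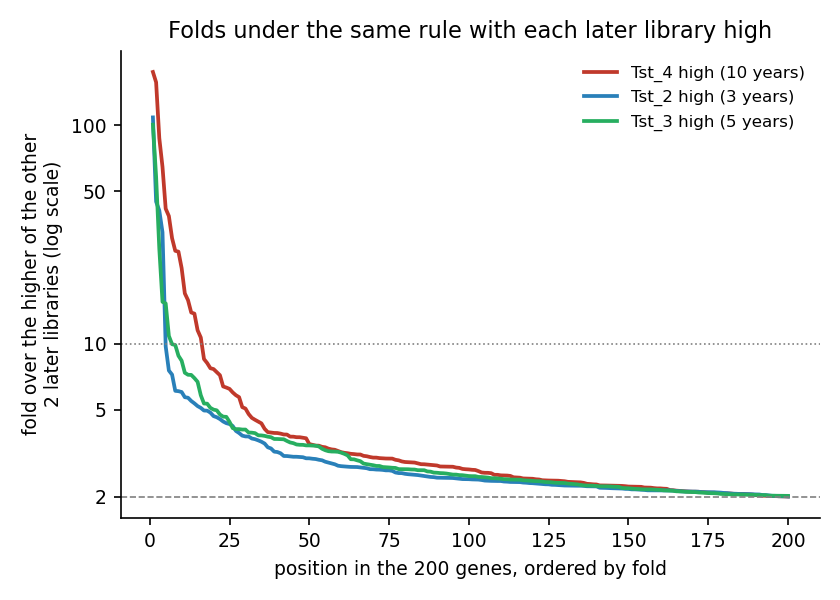
Ratio of the high library to the higher of the other 2 later libraries, on a log scale, for the 200 genes taken with Tst_4, Tst_2 or Tst_3 as the high library, each ordered from the greatest ratio. The dotted line marks a ratio of 10, which 16, 4 and 6 genes reached, and at position 50 the ratios are 3.48, 2.99 and 3.43.

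The level in the juvenile testis, which the rule did not use, was low in most of the 200 genes. In Tst_1, 91 of the 200 were listed at 0 FPKM, or 45.5%, against 9.42% of the 16419 genes that met the other criteria. Another 81 genes were listed in Tst_1 below both Tst_2 and Tst_3, so 172 genes, or 86.0%, were lower in Tst_1 than in both, against 66.5% of the 16419. In 21 genes Tst_1 lay between the lower of Tst_2 and Tst_3 and Tst_4. In 7 genes, or 3.5%, Tst_1 was above Tst_4, against 32.0% of the 16419. The rule chose Tst_4 to be high, so a low share above it was partly built in. The median Tst_1 level was 0.08 FPKM in the 200 genes and 7.39 FPKM in the 16419.

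A high share of genes listed at 0 in Tst_1 was also present when another later library was the high one. Of the first 200 genes with Tst_2 as the high library, 80 were listed at 0 in Tst_1, and with Tst_3 as the high library 58 were. Levels under 0.3 FPKM in Tst_1 were found in 128 of the 200 genes that were high in Tst_4, in 102 of those high in Tst_2 and in 72 of those high in Tst_3, against 16.5%, 15.9% and 16.6% of all genes meeting the other criteria. Among all genes meeting the other criteria for Tst_2 or Tst_3 as the high library, 9.33% and 9.52% were listed at 0 in Tst_1. The backgrounds are not matched to the sets on the level in the other later libraries. With 1 library per age the difference between these shares was not tested.

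**Figure D4:**
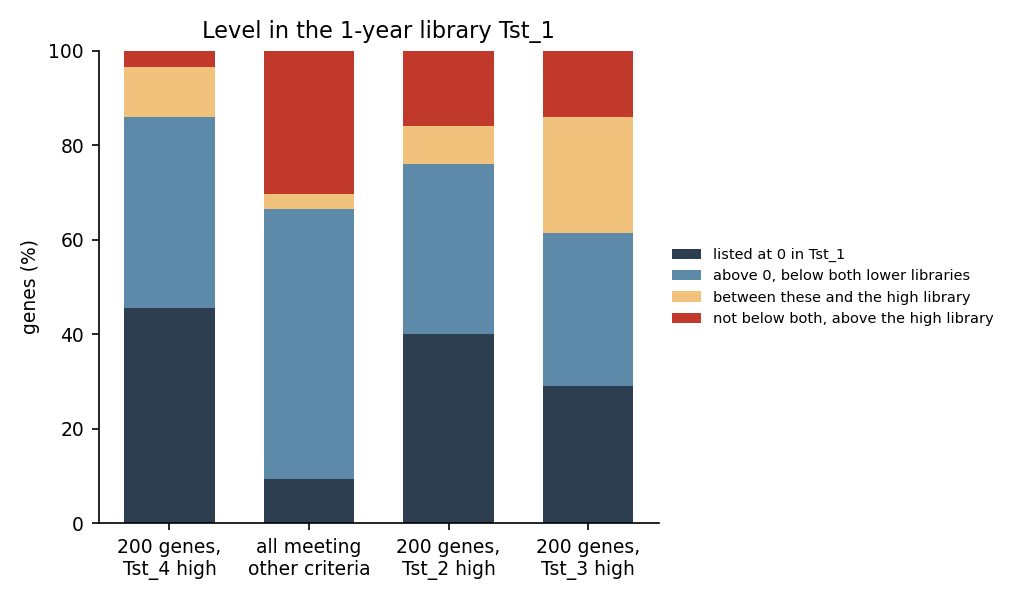
Share of genes (%) by their level in the 1-year library, for the 200 genes high in Tst_4, for all 16419 genes meeting the other criteria, and for the first 200 genes with Tst_2 or Tst_3 as the high library. Genes listed at 0 in Tst_1 make up 45.5%, 9.42%, 40.0% and 29.0% of the 4 bars, and a gene below both of the other later libraries is counted as such even where Tst_1 exceeds the high library.

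In the 16419 genes the share listed at 0 in Tst_1 fell as the level at 3 and 5 years rose. It showed no steady order in the 200 genes, where this level was mostly low. In 123 of them the higher of Tst_2 and Tst_3 was below 5 FPKM, as in 782 of the 16419 genes. Where it was below 2.5 FPKM, 19 of 32 genes were listed at 0 in Tst_1, but every one of the 123 background genes at this level met the rule, so no comparison can be made there. From 2.5 to 5 FPKM, 36 of 91 were, or 39.6%, against 32.3% of 659 background genes. From 5 to 10 FPKM, 20 of 45 were, or 44.4%, against 9.08%, from 10 to 20 FPKM 13 of 23, or 56.5%, against 8.24%, and from 20 FPKM up 3 of 9, or 33.3%, against 7.25%. The gap to the background was thus smaller from 2.5 to 5 FPKM than in the 77 genes of 5 FPKM or more. All background genes had at least 5 FPKM in Tst_4, so below 5 FPKM each was above both Tst_2 and Tst_3 there. The smaller gap was therefore partly built in. The grouping by the level at 3 and 5 years was chosen after the values were seen. Grouped by Tst_4, which the rule used, the share among the 200 was 42.6% of the genes under 10 FPKM, 42.7% of those from 10 to 20, 59.0% of those from 20 to 50 and 36.4% of the 11 genes of 50 FPKM or more. In the 16419 genes the same shares were 11.0%, 8.95%, 7.78% and 8.25%, but these groups differ in their levels at 3 and 5 years. Of the 10 highest genes, 4 were listed at 0 in Tst_1, namely c555045_g1, c6691_g1, c493000_g2 and c69241_g1.

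Some of the 200 genes had a higher level in the juvenile testis than at 3 and 5 years, while the higher level at 10 years was set by the rule. In 28 of the 200 genes Tst_1 was at or above the lower of Tst_2 and Tst_3, though not always above both. This was less common than in the 16419 genes, as 86.0% of the 200 were below both, against 66.5%. Gene c633872_g1 had 54.59 FPKM at 1 year, 3.27 at 3 years, 4.83 at 5 years and 10.50 at 10 years, so its level at 10 years was still below the juvenile one. Gene c681928_g1 had 36.58 FPKM at 1 year, 25.01 at 3 years, 25.92 at 5 years and 54.58 at 10 years. Gene c1189127_g1 had 24.59 FPKM at 1 year, 5.32 at 3 years, 4.30 at 5 years and 13.04 at 10 years. These had the 3 highest Tst_1 levels of the 200 genes, and in 2 of the 3 Tst_1 was the highest library. The 7 genes with Tst_1 above Tst_4 had 12.55 to 54.59 FPKM in Tst_1. In 2 of them, or 1.0% of the 200, Tst_1 was at least 2 times Tst_4, against 14.5% of the 16419. These shares depend on Tst_4, which the rule chose to be high.

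Identifiers have the form of those given by de novo assemblers, in which genes that share the number after c come from connected sequences and may be parts, alleles or relatives of the same gene. Of the 200 genes, 94 were the only identifier with their number, or 47.0%, against 22.2% of the 16419 genes. The share was 46.0% for the first 200 genes high in Tst_2 and 43.5% for those high in Tst_3. Of the 94, 61 were listed at 0 in Tst_1, or 64.9%, against 22.9% of the lone identifiers among the 16419 genes. Of the other 106 genes 30 were, or 28.3%, against 5.55%. These backgrounds are not matched on the level at 3 and 5 years either.

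The 200 genes fell under 199 numbers, and only c669730 held more than 1 of them. Beside c669730_g6, gene c669730_g5 had 0.08 FPKM at 1 year, 8.44 at 3 years, 7.80 at 5 years and 22.52 at 10 years, at a lower level with the same order of a near-absent juvenile value, like values at 3 and 5 years and a higher aged value. The other 4 identifiers of c669730 were below 1 FPKM in all libraries. As the 2 genes may share sequence and reads, they are not independent of each other.

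The other identifiers that share a number with one of the 200 genes were not chosen by the rule. Of 330 such identifiers, 80 had a mean of at least 1 FPKM over Tst_2 and Tst_3, and 4 of the 80, or 5.0%, were at least 2 times higher in Tst_4 than in both. Among 42986 identifiers in clusters of 2 or more with the same floor of 1 FPKM, but not matched on level, the share was 0.84%. The 4 were c493000_g1, c633640_g2, c660410_g7 and c667512_g1, named after their values were seen, with 7.52, 6.94, 7.11 and 4.18 FPKM in Tst_4 and 0 in Tst_1. In the same order they had 0, 3.24, 2.69 and 2.02 FPKM in Tst_2 and 3.74, 1.19, 0.22 and 1.48 in Tst_3. None of them met the whole rule, and such low levels can stand for few fragments on short genes. The median log2 ratio of Tst_4 to the mean of Tst_2 and Tst_3, with 0.1 FPKM added, was -0.10 in the 80 and -0.18 in the 42986. In Tst_4, 11 of the 80, or 13.75%, were at least 2 times lower than in both, against 10.6% of the 42986. Of the 80, 22, or 27.5%, were above both Tst_2 and Tst_3 in Tst_4, against 20.6% of the 42986. The higher aged level was thus not shared by most of the 80. The 200 genes themselves were left out of both sets, so sharing among them was not counted.

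The number of reads behind each FPKM is unknown, but the values repeat at steps that give a lower bound. In Tst_4, 210 identifiers were listed at exactly 5.06 FPKM, against a median of 31 at the 10 nearest values, and no higher value was shared by 200 or more. A smaller peak of 33 identifiers, against 11 nearby, stood at 10.13 FPKM, which is double that value. The last such peak was at 3.13 FPKM in Tst_1, 3.06 in Tst_2 and 4.99 in Tst_3. Read as 1 fragment on the shortest genes, these peaks give the fewest fragments a level can stand for, if fragments were counted whole and no gene was shorter.

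**Figure D5:**
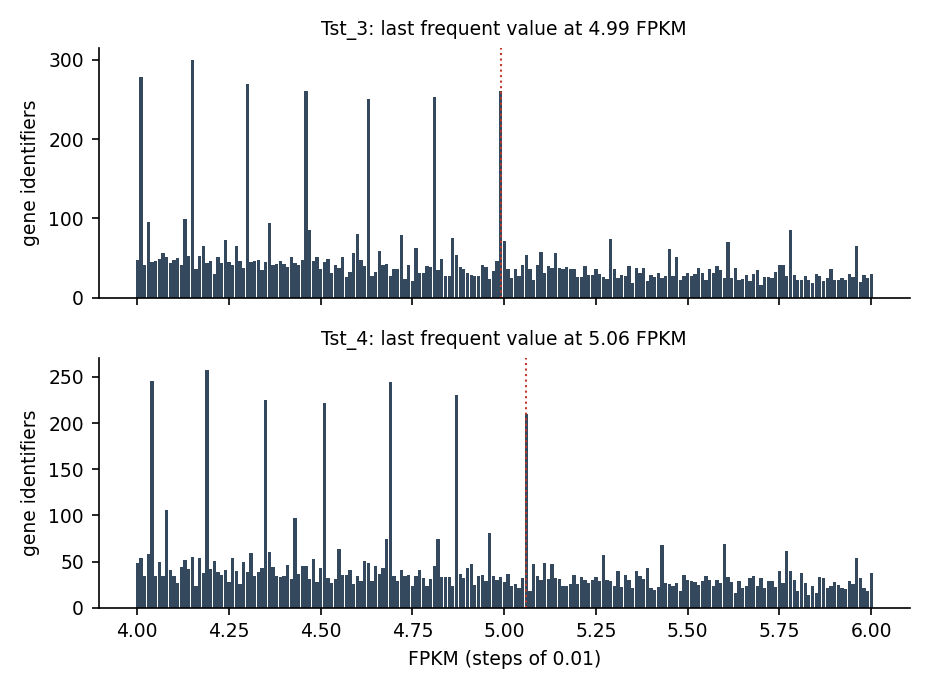
Number of gene identifiers listed at each FPKM value, in steps of 0.01 from 4 to 6 FPKM, in Tst_3 (top) and Tst_4 (bottom). Tall peaks shared by more than 200 identifiers stop at 4.99 FPKM in Tst_3 and at 5.06 FPKM in Tst_4 (dotted lines), and most other values are shared by fewer than 50 identifiers.

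For many of the 200 genes these bounds were low, and the true numbers, which may be higher, are unknown. The bound for Tst_4 was taken as the larger of the level divided by 5.06 FPKM and the ratio of Tst_4 to Tst_3, corrected for the peaks of both libraries, since a listed level in Tst_3 stands for 1 fragment or more. The bound was at least 20 fragments in 13 genes, 10 to 19 in 20, 4 to 9 in 94 and 3 in 73. It was 38 fragments for c555045_g1, 36 for c669730_g6, 17 for c635242_g3 and 167 for c660442_g6, with the rounding of the values to 2 decimals taken into account. In 133 genes a level in Tst_2 or Tst_3 could stand for 1 fragment on a short gene. In 12 genes Tst_2 and Tst_3 both stood for at least 4 fragments. Of the 91 genes listed at 0 in Tst_1, 65 had a Tst_4 level above 9.39 FPKM, the value of 3 fragments on the shortest genes in Tst_1, and 9 had Tst_2, Tst_3 and Tst_4 levels all above it.

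The values next to the limits of the rule were close to each other. The last gene taken, c674019_g2, had 1.43 FPKM at 1 year, 3.23 at 3 years, 3.21 at 5 years and 7.35 at 10 years. The next, c537976_g2, had 7.32 FPKM at 10 years. Nearest above the 2-fold limit were c658923_g1, with a ratio of 2.001 from 16.33, 11.28 and 32.68 FPKM at 3, 5 and 10 years, and c245960_g1, with 2.005 from 4.20, 3.71 and 8.42 FPKM, while 45 of the 200 genes had a ratio under 2.2. Nearest below it, among genes of 7.35 FPKM or more in Tst_4, were c680717_g2, with 1.98, and c636491_g2, with 1.98. At the limit of 1.5 between Tst_2 and Tst_3, c665761_g3 had a ratio of 1.499 from 6.67 and 4.45 FPKM and c487145_g1 of 1.492 from 2.99 and 4.46 FPKM, while c659605_g2 and c662701_g5, with 1.502 and 1.509, were left out.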

How the data were processed

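Testis mRNA was measured in 4 libraries, 1 per age, each from the pooled RNA of 3 animals. The authors deposited FPKM values to 2 decimals with gene identifiers. How reads were aligned and counted, and against which assembly, was not given in the sources used here. Groups came from the age labels. The lists were joined on the identifier, and a gene missing from a list was set to 0. The selection rule, the named genes (the first 10 by Tst_4, the 3 greatest ratios, the 3 highest Tst_1 levels, clusters with the most members, and genes at the limits) and the comparisons were chosen with earlier results of these data known. The value shared by at least 200 identifiers, used to bound fragments, was set after the values were seen. No test was possible with 1 library per age, and the unknown read numbers allow no counting interval. The selection, the finding of repeated values and the trimmed-mean factor were tested on simulated data. The trimmed-mean factor dropped the outer 30% of ratios and the outer 5% of levels on either side. Calculations used Python 3.11.15, numpy 2.4.6, pandas 2.3.3 and matplotlib 3.10.9.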

Additional observations from a re-analysis of the deposited data

How the results depend on the processing

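No paired analysis was possible because there was a single library for every age. The number of genes meeting the rule, 335 as reported, was 947 at a minimum of 2 FPKM, 132 at 10 FPKM, 830 at a fold of 1.5, 127 at a fold of 3, 182 with a stricter closeness of Tst_2 and Tst_3, 643 with no limit on their closeness and 916 where they could be 0, shifts that follow from looser or stricter limits. It was 769 after trimmed-mean and 625 after median-of-ratios scaling, under which 139 and 172 of the 200 genes still met the rule. All 200 stayed above both libraries. Under median-of-ratios scaling their lowest ratio was 2.13, so the genes lost there failed on the closeness of Tst_2 and Tst_3. Under trimmed-mean scaling 190 stayed at least 2 times Tst_2 and all 200 at least 2 times Tst_3, so most losses were also of closeness. The scaled minimum of that setting stood for a lower deposited level in each later library. The median log2 ratio of the 16419 genes for Tst_4 vs. Tst_3 became 0.24 and 0.27 under these scalings, and at most 0.08 in size vs. Tst_2. With more than 3 fragments of the shortest genes required in each later library, a setting chosen after seeing the data, 12 genes met the rule, against 18 with Tst_2 and 7 with Tst_3 as the high library.

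With Tst_2 as the high library, 445 genes became 192 at 10 FPKM, 122 at a fold of 3 and 1163 after trimmed-mean scaling. With Tst_3, 317 became 105, 101 and, after median-of-ratios scaling, 187. The mirrored rule gave 145 at 10 FPKM, 170 at a fold of 3 and 682 after trimmed-mean scaling, in place of 380. Which of the later libraries set apart the most genes changed with the setting. Tst_2 had the most at 10 FPKM, with 0.1 FPKM added to each value and after trimmed-mean scaling. Tst_4 had the most at a fold of 3 and after median-of-ratios scaling, and Tst_3 after division by the sum of FPKM. The cause was not tested.

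The 7 genes with Tst_1 above Tst_4 became 4 after trimmed-mean and 3 after median-of-ratios scaling. Over all 335 genes, 15 had Tst_1 above Tst_4, 161 were listed at 0 in Tst_1 and 280 were below both Tst_2 and Tst_3, as more genes were counted. The other 18 of 44 values stayed within 1.5 times the reported ones. The unknown read number limits every low level.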

Other observations

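The 135 genes that met the rule below the first 200 had 5.00 to 7.32 FPKM in Tst_4. Of these 135, 70 were listed at 0 in Tst_1, 9 had a ratio of at least 10 to both Tst_2 and Tst_3, and 8 had a higher level in Tst_1 than in Tst_4. Over the 16419 genes meeting the other criteria these shares were 9.42%, 0.152% and 32.0%. The rule chose a high Tst_4, and the background is not matched on the level at 3 and 5 years, which was below 5 FPKM in all 135.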
